A study of Mus musculus with 23 samples.

Results

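Contacts of the DCTCF4 line of E14 mouse embryonic stem cells (ESC) were set against those of wild type E14 ESC in the region around Shh. The 4 libraries were chosen by their titles, 2 of E14 ESCs DCTCF4 and 2 of E14 ESCs wild type, from 23 samples in the series. The series maps the Shh region by 5C (chromosome conformation capture carbon copy), in which oligonucleotides at HindIII sites of a chosen region copy ligated fragment ends into a library. Its samples are ESC lines with deletions in this region and mouse embryo tissues. E14 is a widely used mouse ESC line, and DCTCF4 is read here, from knowledge of the study, as a line that lacks a single CTCF site. The labels give stem cells as the stage of both groups, and the same ESC medium, formaldehyde fixation and HindIII digestion. They do not say how many clones stand behind a line, and replicates are named biological. The second comparison group tested on its own is DCTCF5, another ESC line of the same kind, with 2 libraries. Libraries of the ESC deletion lines DCTCF1, DCTCF2, DCTCF3 and D35 are used as well. They help to estimate the spread in the fits, and their values are given as ranges. The mean of DCTCF1, DCTCF2, DCTCF3 and DCTCF5 also serves as an alternative control. No source used here places the DCTCF4 site, so contacts are described over the whole region and no sequence of the site is shown.

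CTCF is a zinc finger protein that binds DNA and stops loop extrusion by cohesin. Pairs of its sites anchor loops, and many boundaries between topologically associating domains (TADs) carry it. Shh encodes the secreted signal Sonic hedgehog, which patterns limb and neural tube, and an intron of Lmbr1 at the far end of the same domain holds the ZRS, the limb enhancer of Shh. RefSeq (GRCm38.p6) lists the named genes of this neighbourhood in the order Insig1, En2, Cnpy1, Rbm33, Shh, Rnf32, Lmbr1, Nom1, Mnx1 and Ube3c. The files use the older mm9 build, for which no annotation was used here, so bins are given by position and not by the gene inside them.

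The matrices cover chromosome 5 from 28.317 to 29.997 Mb (mm9) in 80 bins of 21 kb, numbered from 0, and 3 bins (25, 29 and 64) have no value. A low trough of contact marks each domain boundary, one on the Shh side and one on the Lmbr1 side. The region was divided into 7 zones. These were the left domain (bins 0 to 19, 28.317 to 28.737 Mb), the Shh-side boundary zone (20 to 23), central parts A (24 to 36), B (37 to 49) and C (50 to 61), the Lmbr1-side boundary zone (62 to 67, 29.619 to 29.745 Mb) and the right domain (68 to 79, 29.745 to 29.997 Mb). Contact values have no stated unit and unknown depth. Each library was scaled so that pairs at least 2 bins apart add up to 100000. Before scaling that sum already lay between 48278.7 and 48797.3 in all 14 ESC libraries.

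The DCTCF4 libraries stood apart from all other ESC libraries in contact at the shortest range. Pairs within a bin or with the next bin held 54.1 and 51.4% of the total contact value in DCTCF4, against 34.6 and 41.1% in wild type. The other 10 ESC libraries held 22.2 to 40.8%. As scaled values, contact within a bin averaged 1097 and 999.8 in DCTCF4 and 473 and 620 in wild type. This was a log2 change of 0.95 ± 0.15 (SE, n = 2 each, limma adjusted p 0.0057). Contact with the next bin averaged 457 and 396 in DCTCF4 and 224 and 303 in wild type, a log2 change of 0.71 ± 0.14 (adjusted p 0.014). These were the only 2 of 71 separations (2.82%) that passed, and the test was added after the data were seen. From 2 bins apart to 70, 0 of 69 separations (0%) passed in limma, with 7 at an unadjusted p under 0.05 and changes from -0.22 to 0.28. Against wild type replicate 2 alone, which shares the run year of DCTCF4, the changes were 0.76 within a bin and 0.49 with the next bin. The first missed the threshold without DCTCF4 replicate 1 (adjusted p 0.086) or wild type replicate 1 (0.057), and so did the second (0.197 and 0.109). Fitted with the libraries of the 2 lines alone neither passed (adjusted p 0.130 and 0.361), and with the run year in the model contact with the next bin did not (0.078).

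**Figure D1:**
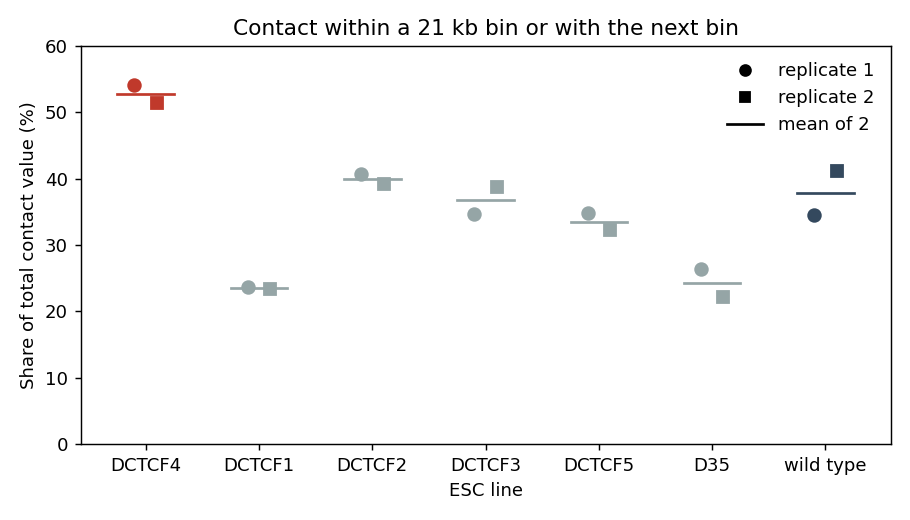
Share of the total contact value (%) that lies within a 21 kb bin or between neighbouring bins, for each ESC library by line; circles are replicate 1, squares replicate 2 and bars the mean of both. DCTCF4 (red) lies at 54.1 and 51.4%, wild type (dark) at 34.6 and 41.1%, and no other ESC library exceeds 40.8%.

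The short-range excess was uneven along the region. In 55 of 77 bins (71.4%) both DCTCF4 libraries had a higher same-bin value than both wild type libraries, and in 6 (7.79%) both were lower. All 13 bins of central part B and all 5 of the Lmbr1-side boundary zone were among the higher ones, with median ratios of DCTCF4 to wild type of 1.86 and 2.13. In central part C the median ratio was 2.57, and the highest ratio, 3.54, was shared by bins 60 and 61, which hold the same value. The wild type libraries lay far apart in some of these bins. Replicates 1 and 2 stood at 248 and 853 in bins 60 and 61, and at 96.0 and 847 in bin 54. The ratios use the mean of both, and how far wild type replicate 1 sets the differences between zones was not tested. The left domain had a median ratio of 1.26, and the 2 lowest ratios of the region belonged to bin 8 in that domain (0.405) and bin 70 in the right domain (0.420). How the authors normalised short-range pairs is not stated in the labels, and the part of that step in the excess was not tested.

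By the run names in the labels, both DCTCF4 libraries and wild type replicate 2 were sequenced in the same year, and wild type replicate 1 in an earlier one. Across 2853 bin pairs at least 2 bins apart, which are not independent, log2 values of the DCTCF4 replicates correlated at r = 0.873 and those of the wild type replicates at 0.938. DCTCF4 replicate 1 correlated with wild type replicate 2 at 0.912, above its correlation with its own replicate. DCTCF4 replicate 2 gave 0.821 and 0.845 with the wild type libraries. It had 19 pairs at 0, DCTCF4 replicate 1 had 5 and the wild type libraries had 0. The 2 replicates are few, so all 14 ESC libraries were fitted together to estimate the spread.

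At the Lmbr1-side boundary, contact rose within the boundary zone and between it and the first 2 parts of the central domain. Contacts within bins 62 to 67 averaged 224 and 218 in DCTCF4, against 114 and 144 in wild type. The log2 change was 0.79 ± 0.09 (SE, n = 2 each, limma adjusted p 4.9e-05). Without bin 65 it was -0.17 (adjusted p 0.427). Contacts between central part A and the zone averaged 30.7 and 30.2 in DCTCF4 and 24.8 and 23.3 in wild type, a change of 0.34 ± 0.07 (adjusted p 0.0083). Those between central part B and the zone averaged 35.9 and 33.8 in DCTCF4 and 29.1 and 29.6 in wild type, a change of 0.25 ± 0.07 (adjusted p 0.022). In all 3 blocks the groups did not overlap, which was so for 6 of all 28 blocks (21.4%) in the higher direction. When each library was scaled over all separations instead, every block change moved down by the same amount. Central part C with the zone went from 0.00 to -0.39. The changes of central parts A and B with the zone were then -0.05 and -0.15, and neither passed (limma adjusted p 0.623 and 0.168). The 3 blocks named first were those called higher of 28 tested (10.7%), and 1 block was called lower (3.57%).

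Contacts that lead out of the zone to the nearest neighbours did not pass. Central part C with the zone averaged 43.4 and 41.7 in DCTCF4 and 41.3 and 43.8 in wild type, a change of 0.00 ± 0.07 (adjusted p 0.999). The zone with the right domain averaged 63.1 and 63.1 in DCTCF4 and 57.0 and 62.9 in wild type, a change of 0.08 ± 0.08 (adjusted p 0.543). With the zone edges moved in by 1 bin this last block passed, at 0.33 (adjusted p 0.013). Those edges bring in the pair of bin 65 with bin 67, which repeats the same-bin value of bin 65. With the original edges and without bin 65 the change was 0.03 (adjusted p 0.880). Left domain with the zone averaged 23.4 and 22.1 in DCTCF4 and 24.8 and 22.3 in wild type, a change of -0.05 (adjusted p 0.802). The call for central part A was lost without DCTCF4 replicate 1 (adjusted p 0.055), and that for central part B without DCTCF4 replicate 1 (0.095) or wild type replicate 1 (0.087). With the 2 lines alone neither passed (adjusted p 0.117 and 0.479). Central part B also missed the threshold with the run year in the model (0.061), when scaled by the median ratio (0.082) and against the other deletion lines (0.15, adjusted p 0.058). Here and below, fits against the other deletion lines used the mean of 4 lines, DCTCF1, DCTCF2, DCTCF3 and DCTCF5, and not D35.

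**Figure D2:**
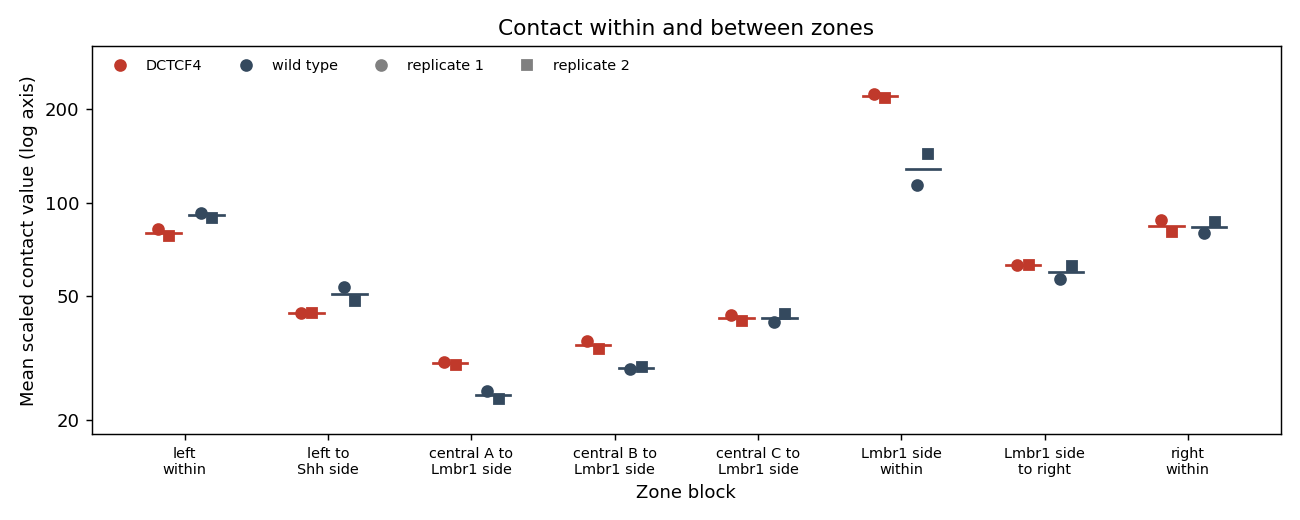
Mean scaled contact value per zone block (log axis) in DCTCF4 (red, left of each pair) and wild type (dark, right); circles are replicate 1, squares replicate 2 and bars the arithmetic mean of both. The groups are far apart within the Lmbr1-side zone (224 and 218 in DCTCF4, 114 and 144 in wild type) and side by side or mixed between central part C and that zone and within the right domain. Without bin 65 the log2 change within the Lmbr1-side zone was -0.17 (limma adjusted p 0.427).

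Within the zone the rise lay in the contacts of bin 65 (29.682 to 29.703 Mb), the trough of the boundary. All 3 pairs of bin 65 in the zone were higher in both DCTCF4 libraries than in both wild type libraries, and in the other 4 pairs the groups overlapped. Over all bin pairs, 17.2% were higher in this way. Bin 65 with bin 67 (29.724 to 29.745 Mb) stood at 968 and 936 in DCTCF4 and at 360 and 482 in wild type. Its log2 change was 1.17 ± 0.22 (SE, n = 2 each, adjusted p 0.025). The other 10 ESC libraries ranged from 25.7 to 473. The lowest were those of the D35 line, which also held 0 for bin 66 with itself. Without D35 the lowest value was 226, in DCTCF1. Bins 62 and 63 share 1 value with bin 65, which was 183 and 201 in DCTCF4 and 106 and 139 in wild type. Its change of 0.62 ± 0.15 missed the threshold (adjusted p 0.076).

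The value of bin 65 with bin 67 is not a separate measurement. In every ESC library the files give bin 65 with itself, with bin 66 and with bin 67 exactly the same value, so the pair belongs to the short-range excess described above. 6 pairs at least 2 bins apart share a value with a short-range pair in this way. Without them the change within the zone was 0.31 (adjusted p 0.023), and without bin 65 it was -0.17 (adjusted p 0.427). The pair itself missed the threshold without DCTCF4 replicate 2 (adjusted p 0.088) or wild type replicate 1 (0.208).

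In the other 4 pairs of the zone the groups overlapped. Bin 62 with bin 66 stood at 60.7 and 40.8 in DCTCF4 and at 59.0 and 66.7 in wild type, a change of -0.28 (adjusted p 0.526). Bin 62 with bin 67 stood at 44.4 and 39.7 in DCTCF4 and 42.6 and 46.03 in wild type, a change of -0.06 (adjusted p 0.920). Bin 63 with bin 66 stood at 86.5 and 63.9 in DCTCF4 and 79.5 and 91.3 in wild type, a change of -0.17 (adjusted p 0.671). The remaining pair, bin 63 with bin 67, changed by -0.03 (adjusted p 0.997).

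The insulation value, log2 of the mean contact between the 5 bins before a bin and the 5 bins after it relative to the library mean, was used to follow contact across each bin. A low value marks a boundary. In DCTCF4, 17 of 70 bins passed (24.3%), 8 of them with a higher value (11.4%) and 9 with a lower one (12.9%), and 23 were at an unadjusted p under 0.05. Neighbouring bins share contact pairs, so these calls are not independent. At the trough itself, bin 65, the value was -0.89 and -0.68 in DCTCF4 and -0.72 and -0.83 in wild type, a change of -0.01 ± 0.09 (adjusted p 0.904). The groups overlapped there.

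One bin further out, at bin 66 (29.703 to 29.724 Mb), contact across the bin rose. The value was 0.54 and 0.54 in DCTCF4 and -0.12 and 0.00 in wild type. It rose by 0.60 ± 0.07 (SE, n = 2 each, adjusted p 1.1e-05). The other 10 ESC libraries ranged from -0.68 to 0.33, below both DCTCF4 libraries. The rise rests on the shared value of bin 65. Without the 6 pairs that share a short-range value it was 0.14 (adjusted p 0.212), and without bin 65 it was 0.08 (adjusted p 0.523).

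On the central side of the trough, bins 62 and 64 rose by 0.21 ± 0.07 and 0.23 ± 0.08 (adjusted p 0.041 each). Bin 62 stood at -0.10 and -0.10 in DCTCF4 and -0.31 and -0.32 in wild type. Bin 63, at 0.24 ± 0.09, missed the threshold (adjusted p 0.0503), and bin 67 changed by 0.09 ± 0.07 (adjusted p 0.411). Both calls were lost without any 1 of the 4 libraries, with adjusted p from 0.115 to 0.196 at bin 62 and from 0.079 to 0.201 at bin 64. Without bin 65 the changes were 0.13 (adjusted p 0.260) and 0.03 (adjusted p 0.817), with a window of 8 bins they were 0.01 (0.953) and 0.08 (0.427), and against the other deletion lines 0.06 (0.515) and 0.08 (0.420).

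**Figure D3:**
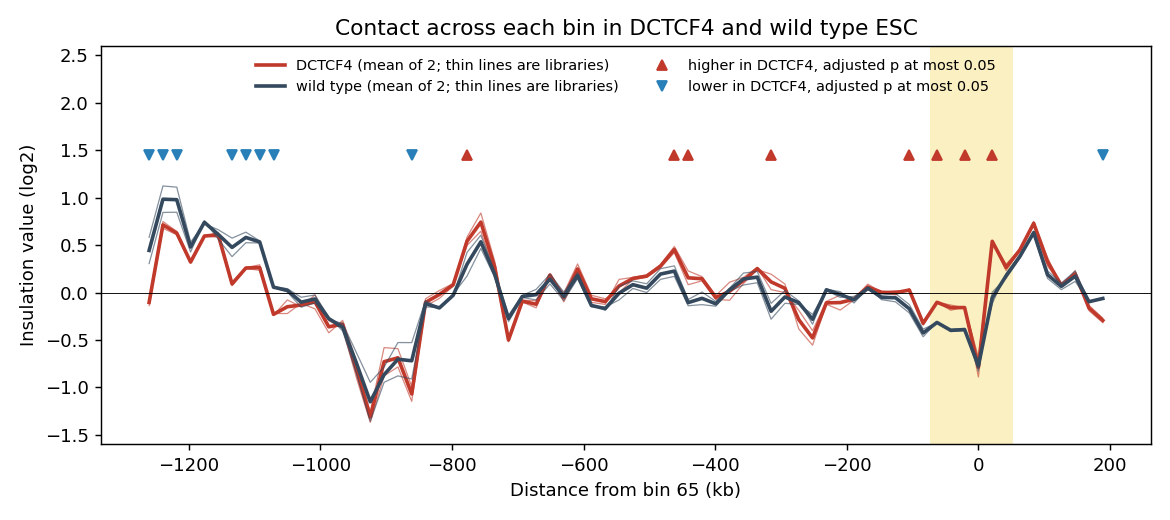
Insulation value (log2) of each bin against its distance from bin 65 (kb) in DCTCF4 (red) and wild type (dark); thick lines are means of 2 libraries, thin lines single libraries, and triangles mark the 8 higher and 9 lower bins with an adjusted p of at most 0.05. The shaded Lmbr1-side zone holds the rise just right of the trough, where DCTCF4 stands at 0.54 and 0.54 and wild type at -0.12 and 0.00, and the left end holds 7 of the lower bins.

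On the Shh side, the trough at bin 21 (28.758 to 28.779 Mb) overlapped between the groups. Its insulation value was -1.37 and -1.26 in DCTCF4 and -0.95 and -1.36 in wild type, a change of -0.16 ± 0.10 (adjusted p 0.321). Without wild type replicate 2 the change was -0.37 and passed (adjusted p 0.0083). Bin 24 (28.821 to 28.842 Mb), inside the trough's central flank, fell to -1.15 and -0.99 in DCTCF4, against -0.53 and -0.91 in wild type. The change of -0.35 ± 0.12 passed (adjusted p 0.041), but it was -0.16 without wild type replicate 1 (adjusted p 0.497), and the call was also lost without DCTCF4 replicate 1 (0.260) or replicate 2 (0.078). Bin 24 also gave the remaining 2 higher pairs, with bins 62 and 63 at the other end of the central domain, as 1 shared value. That contact, across 798 kb, was 78.9 and 84.9 in DCTCF4 and 43.0 and 50.0 in wild type, a log2 change of 0.71 ± 0.13 (adjusted p 0.026). The 10 other ESC libraries ranged from 46.5 to 64.54. It missed the threshold without DCTCF4 replicate 2 (adjusted p 0.101) or wild type replicate 1 (0.208).

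The single bin pairs that passed were mostly lower in DCTCF4, while the median log2 change over all pairs was 0.003. Of 2853 pairs, 22 passed (0.771%), of which 3 were higher (0.105%) and 19 lower (0.666%) in DCTCF4, with 419 at an unadjusted p under 0.05. Of the 19 lower pairs, 9 lay within the left domain, 3 within the right domain and 2 joined both. Bin 8 (28.485 to 28.506 Mb) took part in 8 of them, bin 70 (29.787 to 29.808 Mb) in 4 and bin 4 (28.401 to 28.422 Mb) in 3. Of the 19, 13 held at least 1 of these bins and 6 held none. Both DCTCF4 libraries lay beyond all 12 other ESC libraries in 20 of the 22 called pairs, which were called on part of this difference, and in 186 of all 2853 pairs (6.52%). For insulation this held at 5 of the 17 called bins (5, 7, 11, 12 and 66) and at 8 of all 70 (11.4%), so at the other 12 called bins, bins 62, 64, 50 and 74 among them, other lines reached the DCTCF4 values. To see how stable the number of called bin pairs was, the fit of pairs was rerun without each library in turn. The count depends on single libraries: it was 0 without wild type replicate 1, 9 without DCTCF4 replicate 2 and 98 without DCTCF4 replicate 1. A covariate for the run year left 7.

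**Figure D4:**
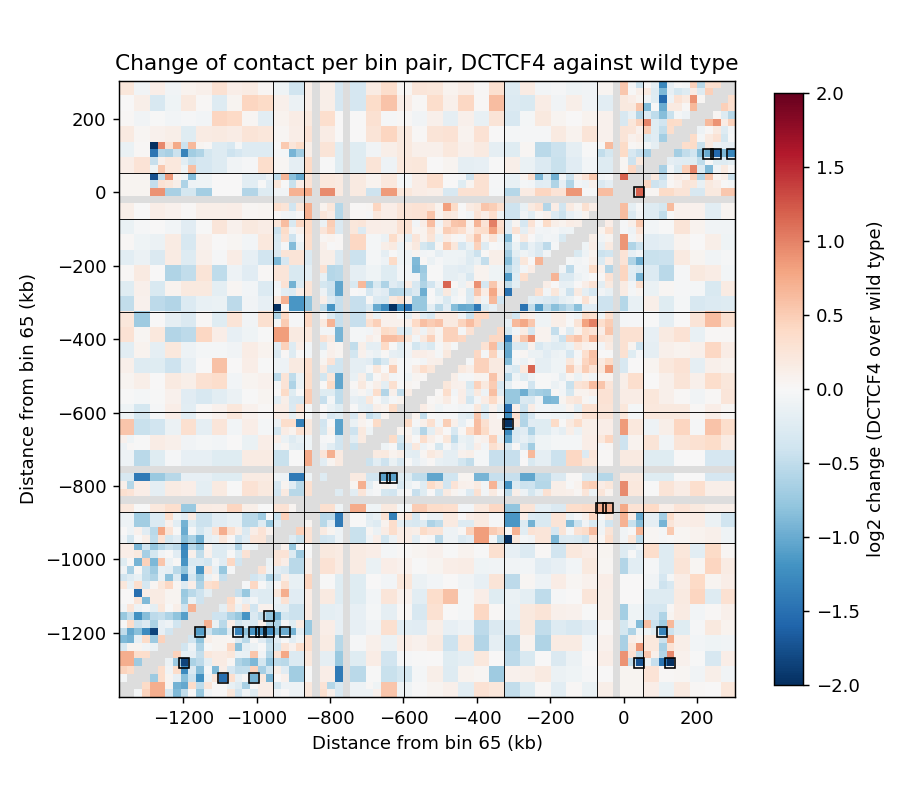
Log2 change of contact (DCTCF4 over wild type) for each bin pair at least 2 bins apart, with both axes as distance from bin 65 (kb); red is higher in DCTCF4, blue lower, grey has no tested value, thin lines separate the zones and open squares mark the 22 called pairs. Lower pairs form stripes at bins 4, 8 and 70 at both ends of the map and at bin 50 and bin 28 in the middle.

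In the left domain, which neighbours the Shh side, bin 8 had lower contact with its own domain. Its fall was not confined to that domain. Bin 8 was also lower with itself (DCTCF4 to wild type ratio 0.405) and with the Shh-side boundary zone (log2 change -0.87). Its contacts with the left domain, as the authors' ratio of observed over expected contact, averaged 1.17 and 1.19 in DCTCF4 and 2.40 and 1.86 in wild type. This was a log2 change of -0.84 ± 0.12 (SE, n = 2 each, adjusted p 0.0015). Both DCTCF4 libraries were below all others, since the 10 remaining ESC libraries ranged from 1.59 to 2.05. The call held without each of the 4 libraries in turn and in each of the other alternatives run on it. Among these averages of a bin with a zone, 18 of 534 passed (3.37%), of which 6 were higher (1.12%) and 12 lower (2.25%). With the run year in the model 4 passed, those of bin 8 and bin 10 with the left domain, bin 70 with the right domain and bin 67 with its own zone.

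The loss at bin 8 was seen over much of the domain. With bin 15 (28.632 to 28.653 Mb) its contact was 50.3 and 49.4 in DCTCF4 and 148 and 129 in wild type, a log2 change of -1.32 ± 0.17 (adjusted p 0.0026). With bin 19 it was 34.8 and 25.6 in DCTCF4 and 102 and 74.5 in wild type, a change of -1.30 ± 0.17 (adjusted p 0.0027). With bin 4 it was 90.6 and 60.4 in DCTCF4 and 297 and 289 in wild type, a change of -1.86 ± 0.23 (adjusted p 0.0026). In all 3 pairs every DCTCF4 value was below every other ESC value. Each of them missed the threshold without wild type replicate 1 (adjusted p 0.052), with changes of -1.23, -1.09 and -1.84.

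The remaining lower pairs of bin 8 in the left domain were those with bins 10, 17 and 18, with changes of -1.10, -1.19 and -1.27 (adjusted p 0.017, 0.012 and 0.022). All 3 missed the threshold without DCTCF4 replicate 2 or wild type replicate 1, and the pair with bin 18 also without wild type replicate 2 (adjusted p 0.059). Beyond the domain, bin 8 with the Shh-side boundary zone averaged 1.76 and 1.69 in DCTCF4 and 4.00 and 2.49 in wild type as observed over expected. The change was -0.87 ± 0.17 (adjusted p 0.0075), and -0.53 without wild type replicate 1 (adjusted p 0.113). It also missed the threshold without DCTCF4 replicate 2 (adjusted p 0.081). With bin 21, the trough of that zone, bin 8 stood at 54.2 and 55.1 in DCTCF4 and 136 and 101 in wild type, a change of -0.99 ± 0.20 (adjusted p 0.041). That call was lost without DCTCF4 replicate 1 (adjusted p 0.053), DCTCF4 replicate 2 (0.111) or wild type replicate 1 (0.284). The same-bin value of bin 8 was 141 and 134 in DCTCF4 and 371 and 310 in wild type. In the other 10 ESC libraries the same-bin value ranged from 125 to 281, so there the DCTCF4 libraries were not beyond the other lines.

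Bin 10 (28.527 to 28.548 Mb) also fell with the left domain, to 0.78 and 0.70 in DCTCF4, against 1.22 and 1.28 in wild type. The change was -0.76 ± 0.13 (adjusted p 0.0038), and it missed the threshold without DCTCF4 replicate 2 (adjusted p 0.058). Bin 15 with the left domain fell by 0.46 ± 0.10 on the log2 scale (adjusted p 0.019). That call was lost without DCTCF4 replicate 2 (adjusted p 0.097) or wild type replicate 1 (0.144). A pair without bin 8, that of bins 2 and 13 (28.359 to 28.380 and 28.590 to 28.611 Mb), was at 9.71 and 11.0 in DCTCF4 and 48.7 and 44.3 in wild type. Its change of -1.50 ± 0.19 (adjusted p 0.0026) came with 33.5 to 61.2 in the other 10 ESC libraries, and it missed the threshold without wild type replicate 1 (0.052). The pairs of bin 2 with bin 17 and of bin 10 with bin 19 fell by 0.93 ± 0.17 and 0.80 ± 0.15 on the log2 scale (adjusted p 0.022 and 0.030). The first was lost without DCTCF4 replicate 2 (0.065) or wild type replicate 1 (0.170), and the second without any 1 of the 4 libraries (0.052 to 0.151).

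**Figure D5:**
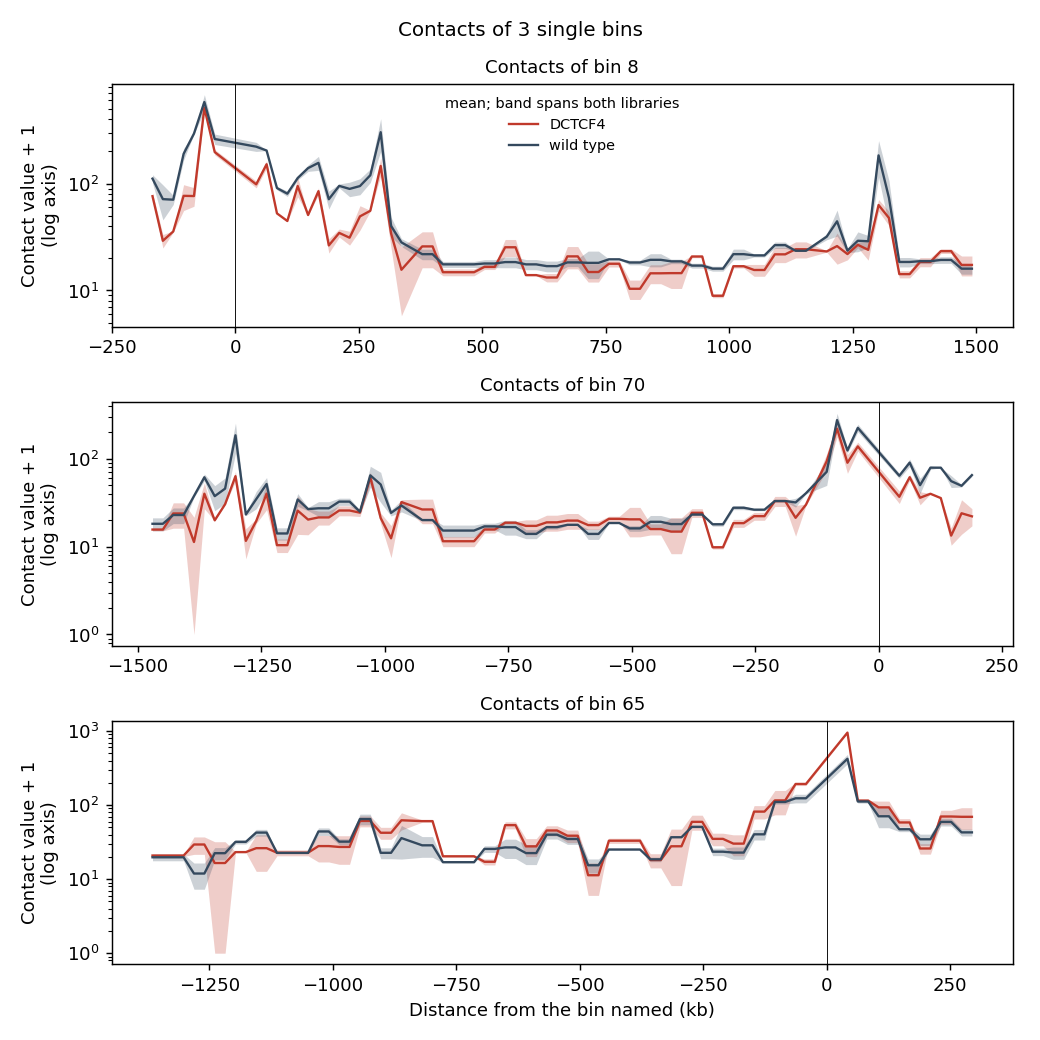
Scaled contact value plus 1 (log axis) of bins 8, 70 and 65 with every other bin at least 2 bins away, against the distance from that bin (kb); lines are means and bands span both libraries of DCTCF4 (red) and wild type (dark). DCTCF4 lies below wild type around bin 8 and to the right of bin 70, and the far peak that joins bins 8 and 70 is lower (70.0 and 54.2 in DCTCF4, 252 and 114 in wild type).

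Contact across bins of the left domain also fell. Of the 9 bins with a lower insulation value, 7 lay there (bins 5, 6, 7, 11, 12, 13 and 14). At bin 5 (28.422 to 28.443 Mb) the value was -0.14 and -0.07 in DCTCF4 and 0.58 and 0.31 in wild type, a change of -0.55 ± 0.09 (adjusted p 0.00042). Bin 11 (28.548 to 28.569 Mb) stood at 0.07 and 0.11 in DCTCF4 and 0.57 and 0.38 in wild type, a change of -0.39 ± 0.07 (adjusted p 0.0010). Bin 11 kept its call in all 15 alternatives run, and bin 5 without each of the 4 libraries. The calls at bins 6, 7, 12, 13 and 14 were lost without wild type replicate 1 (adjusted p 0.497, 0.185, 0.088, 0.122 and 0.053), and those at bins 6, 7, 13 and 14 also without DCTCF4 replicate 1 (0.222, 0.074, 0.112 and 0.056). Bin 6 was lost as well without DCTCF4 replicate 2 (0.108). With bins 4, 8 and 70 left out, bin 5 changed by -0.24 (adjusted p 0.095), bin 7 by -0.20 (adjusted p 0.188) and bin 6 by 0.01 (adjusted p 0.981).

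Summed over the whole left domain the loss was smaller. Contacts within it averaged 82.3 and 78.0 in DCTCF4 and 92.9 and 89.3 in wild type, a log2 change of -0.19 ± 0.06 that missed the threshold (adjusted p 0.075). On the ratio of observed over expected the change of -0.20 passed (adjusted p 0.021). Contacts of the left domain with the Shh-side boundary zone averaged 44.4 and 44.1 in DCTCF4 and 53.6 and 48.4 in wild type, the single lower block of 28. That change of -0.20 ± 0.06 (adjusted p 0.046) was lost without DCTCF4 replicate 1 (0.095), DCTCF4 replicate 2 (0.134) or wild type replicate 1 (0.212). Without bins 4, 8 and 70 the changes were -0.06 within the domain and -0.09 with the boundary zone, and neither passed (adjusted p 0.563 and 0.346).

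In the right domain, beyond the Lmbr1-side boundary, all 3 called pairs were lower and had bin 70 at one end. Bin 70 was also lower with itself (ratio 0.420) and with the left domain (log2 change -0.60), so its fall was not confined to the right domain. Its contacts with the right domain averaged 0.48 and 0.50 in DCTCF4 as observed over expected, against 0.99 and 1.01 in wild type. The log2 change of -1.03 ± 0.14 (SE, n = 2 each, adjusted p 0.0015) held without each of the 4 libraries in turn and in each other alternative run on it. The remaining 10 ESC libraries ranged from 0.59 to 1.08, above both DCTCF4 libraries. Against wild type replicate 2 alone the change was -1.05.

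By pair, bin 70 with bin 79 at the right end stood at 25.9 and 16.2 in DCTCF4 and 61.7 and 65.96 in wild type, a change of -1.29 ± 0.17 (adjusted p 0.0028). With bin 76 it stood at 34.0 and 35.1 in DCTCF4 and 77.7 and 77.7 in wild type, a change of -0.99 ± 0.17 (adjusted p 0.017). With bin 77 it stood at 15.3 and 9.35 in DCTCF4 and 45.8 and 62.9 in wild type, a change of -1.56 ± 0.31 (adjusted p 0.035). Over all bin pairs 22.4% were lower without overlap, and none of these 3 overlapped between the groups. They missed the threshold without wild type replicate 1 (adjusted p 0.052, 0.122 and 0.122), those with bins 76 and 77 also without DCTCF4 replicate 2 (0.065 and 0.160) or wild type replicate 2 (0.059 and 0.151). The same-bin value of bin 70 was 318 and 233 in DCTCF4 and 716 and 598 in wild type, with 280 to 818 in the other 10 ESC libraries.

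Over the whole right domain the block did not pass. Contacts within it averaged 88.1 and 80.5 in DCTCF4 and 80.2 and 87.1 in wild type, a change of 0.01 ± 0.08 (adjusted p 0.999). Central part C with the right domain averaged 15.1 and 18.3 in DCTCF4 and 17.7 and 18.0 in wild type, a change of -0.11 ± 0.09 (adjusted p 0.512). The groups overlapped in both blocks. Contact across bin 74 (29.871 to 29.892 Mb) fell to -0.32 and -0.27 in DCTCF4, against -0.06 and -0.06 in wild type, a change of -0.23 ± 0.06 (adjusted p 0.017). It was -0.09 without bins 4, 8 and 70 (adjusted p 0.423) and 0.04 with a window of 3 bins (adjusted p 0.745). The call was also lost without DCTCF4 replicate 1 (adjusted p 0.115) or wild type replicate 1 (0.126).

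Between the outer domains, contact was lower at bins 8, 70 and 4. Bin 70 with the left domain averaged 1.13 and 1.15 in DCTCF4 and 1.87 and 1.60 in wild type as observed over expected, a log2 change of -0.60 ± 0.12 (adjusted p 0.0093). It missed the threshold without DCTCF4 replicate 2 (adjusted p 0.065) or wild type replicate 1 (0.141). In wild type, bins 8 and 70 form a far peak 1302 kb apart, with 252 and 114. In DCTCF4 that peak stood at 70.0 and 54.2, a log2 change of -1.34 ± 0.28 (adjusted p 0.047). The wild type libraries lay far apart from each other here, and without wild type replicate 1 the change was -0.79 (adjusted p 0.258). It was also lost without DCTCF4 replicate 2 (adjusted p 0.167). Bin 4 with bin 71 stood at 11.9 and 0 in DCTCF4 and 56.5 and 47.1 in wild type, a change of -2.11 ± 0.27 (adjusted p 0.0026), and missed the threshold without wild type replicate 1 (0.052). The other 10 ESC libraries ranged from 6.81 to 47.1 there, so DCTCF4 was not beyond all lines. Bin 4 with bin 67, in the Lmbr1-side zone, stood at 10.8 and 0 in DCTCF4 and 48.7 and 26.9 in wild type, a change of -1.74 ± 0.34 (adjusted p 0.032), lost without DCTCF4 replicate 2 (0.160) or wild type replicate 1 (0.235). Left domain with right domain as a whole averaged 17.6 and 20.3 in DCTCF4 and 21.0 and 16.7 in wild type, a change of 0.01 ± 0.12 (adjusted p 0.999).

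Inside the central domain, bins 46 and 47 (29.283 to 29.325 Mb) gained contact with the Shh-side boundary zone. Bin 46 averaged 2.26 and 2.53 in DCTCF4 and 1.504 and 1.63 in wild type as observed over expected, a log2 change of 0.61 ± 0.11 (adjusted p 0.0071). Bin 47 changed by 0.59 ± 0.11 (adjusted p 0.0075). It averaged 2.26 and 2.54 in DCTCF4 and 1.52 and 1.66 in wild type, nearly the values of bin 46, so the 2 calls are not independent. The other 10 ESC libraries had 1.10 to 1.90 at bin 46, below both DCTCF4 libraries. Both calls were lost without DCTCF4 replicate 2 (adjusted p 0.078 and 0.081) or wild type replicate 1 (0.113 each).

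Bin 28 (28.905 to 28.926 Mb) lost contact with the left domain, at 0.37 and 0.39 in DCTCF4 and 0.64 and 0.51 in wild type. The log2 change of -0.59 ± 0.12 (adjusted p 0.0096) was lost without DCTCF4 replicate 2 (adjusted p 0.065) or wild type replicate 1 (0.149). Bin 28 also had lower contact with bins 34 and 35, as 1 shared value of 5.93 and 7.67 in DCTCF4 and 23.5 and 25.5 in wild type. That change of -1.07 ± 0.21 (adjusted p 0.032) was lost without any 1 of the 4 libraries (0.054 to 0.148).

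At bin 50 (29.367 to 29.388 Mb) many pairs were lower and none higher. Of its 74 pairs, 37 (50.0%) were lower in both DCTCF4 libraries than in both wild type libraries and 0 were higher, against 22.4% lower and 17.2% higher over all pairs. As observed over expected, all pairs of bin 50 averaged 0.67 and 0.55 in DCTCF4 and 1.01 and 0.97 in wild type. They were as low in DCTCF1 (0.53 and 0.57) and DCTCF2 (0.66 and 0.67), so DCTCF4 did not stand apart from the other deletion lines there. Its pair with bin 35 (29.052 to 29.073 Mb) was at 0 in each DCTCF4 library as listed, against 46.5 and 39.5 in wild type (adjusted p 0.012). That pair missed the threshold without DCTCF4 replicate 2 (adjusted p 0.065) or wild type replicate 1 (0.122). Bin 8 had a similar share, with 40 of 74 pairs lower (54.1%) and 6 higher. At the other extreme, bin 48 had 31 of 74 pairs higher (41.9%) and 5 lower. Its average of 1.31 and 1.16 in DCTCF4, against 1.02 and 1.02 in wild type, was matched in DCTCF2 (1.32 and 1.304) and DCTCF3 (1.24 and 1.28). The insulation value at bin 50, which leaves out the bin itself, was 0.03 and 0.19 in DCTCF4 and -0.28 and -0.12 in wild type, a change of 0.31 ± 0.08 (adjusted p 0.011). That call was lost without DCTCF4 replicate 2 (adjusted p 0.129) or wild type replicate 1 (0.185), with windows of 3 and 8 bins (0.069 and 0.051), with the run year in the model (0.062) and with the 2 lines alone (0.053). Against the other deletion lines the change was 0.12 (adjusted p 0.225).

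The bins of the Lmbr1-side zone did not pass with the left, central C or right zones when taken singly. Bin 65 came closest to it, with central part C at 1.07 and 1.04 in DCTCF4 and 0.83 and 0.83 in wild type, a change of 0.34 ± 0.13 (adjusted p 0.166). With the right domain it averaged 1.23 and 1.28 in DCTCF4 and 0.89 and 1.10 in wild type, a change of 0.34 ± 0.14 (adjusted p 0.205). The groups did not overlap in these 2 averages, which was also so for 24.3% of all averages in the higher direction. With the left domain bin 65 averaged 1.49 and 0.80 in DCTCF4 and 1.21 and 1.33 in wild type, which overlap. Within its own zone bin 65 rose to 2.95 and 3.36 in DCTCF4, against 1.59 and 1.96 in wild type, by 0.84 ± 0.15 (adjusted p 0.0071), and bin 67 by 0.80 ± 0.13 (adjusted p 0.0038). These 2 averages include the shared short-range value, and as a median over pairs bin 67 changed by -0.00118 (adjusted p 0.996). Both missed the threshold without DCTCF4 replicate 2 (adjusted p 0.081 and 0.058) or wild type replicate 1 (0.117 and 0.113).

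DCTCF5, whose libraries were sequenced in the same year as those of DCTCF4, gave a second comparison. Insulation differed at 26 of 70 bins (37.1%) between DCTCF4 and DCTCF5, higher in DCTCF4 at 16 and lower at 10. At bin 66 the value was 0.54 and 0.54 in DCTCF4 and 0.33 and 0.28 in DCTCF5, a difference of 0.24 ± 0.07 (SE, n = 2 each, adjusted p 0.016). At bin 65 it was -0.89 and -0.68 in DCTCF4 and -0.42 and -0.50 in DCTCF5, a difference of -0.33 ± 0.09 (adjusted p 0.011). The trough was thus deeper in DCTCF4 than in DCTCF5. DCTCF4 and wild type overlapped at this bin, as given above. With the libraries of the 2 lines alone, the calls at bins 65 and 66 were both lost. At bin 5 the difference was -0.44 ± 0.09 (adjusted p 0.0053) and at bin 11 it was -0.21 ± 0.07 (adjusted p 0.026). This comparison and that with wild type share the DCTCF4 libraries. Without bin 65 the difference at bin 66 was -0.36 (adjusted p 0.0047). Without DCTCF4 replicate 1 or 2 the count was 8 or 9, with bin 66 at adjusted p 0.084 and 0.081, and without DCTCF5 replicate 2 it was 45. The difference at bin 65 missed the threshold without DCTCF4 replicate 1 (adjusted p 0.117).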

How the data were processed

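5C matrices of the 14 E14 ESC libraries were used. Per the labels' protocols, cells were fixed, digested with HindIII and ligated, and 5C oligonucleotides were annealed to the ligated DNA. The deposited binned matrices hold a contact signal for each pair of 21 kb bins, with no stated normalization. A second set, also deposited by the authors, holds a ratio of observed over expected contact. The build is mm9, per the submitters' processing notes. The aligner: not given in the sources used here; likewise the binning software. Summed matrices were not used.

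Contact values were scaled to a total of 100000 over pairs at least 2 bins apart. In each library 33.7 to 33.9% of pairs repeat the value next to them, so pairs are not independent. Pairs above 0 in at least 50% of libraries were tested as log2(value + 9.36), the pseudocount being the 5th percentile of values above 0, which understates the change of low pairs. Insulation used a window of 5 bins. Averages of a bin with a zone needed at least 3 pairs and used the ratio. All tests were limma 3.58.1 (R 4.3.3; lmFit and eBayes) over the 14 libraries in 1 fit with the line as the factor. Benjamini-Hochberg adjustment ran over all features of a comparison, with 0.05 as the threshold. An exact permutation test of 2 against 2 libraries cannot go below p = 0.333. The p-values measure the spread between these libraries only. The code was tested on simulated data.

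The libraries, zones and comparisons were chosen with earlier results of these data known. Named were bins 62 to 67 and 21 and the 10 insulation bins of smallest p, all pairs within bins 62 to 67 and the called pairs, the called blocks with those of the left, Lmbr1-side and right zones, and the 10 bin and zone averages of smallest p. Other bins named were chosen after their values were seen. Alternatives concerned the fit, the scaling, the pseudocount, the filters, the window, bin 65, equal neighbours and each library in turn. Those on short-range pairs, on bins 4, 8 and 70 and on scaling over all separations were added after the data were seen.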

Additional observations from a re-analysis of the deposited data

Results flagged for a closer look

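A signal outside the main measurement was larger in DCTCF4 than in wild type: contact within a bin or with the next bin, which the tests of bin pairs leave out, held 54.1% of the total contact value in DCTCF4 replicate 1 and 51.4% in replicate 2, against at most 41.1% in wild type. The cause was not tested.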

How the results depend on the processing

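Counts of passing features (higher and lower together) that moved by over 1.5 times were as follows. The 22 bin pairs became 7 with the run year as a covariate, 1 with the libraries of the 2 lines alone, 60 against the other deletion lines, 34 with the pseudocount at the 20th percentile, 14 as observed over expected, 39 from separation 1, 39 with 1 pair of each run of equal neighbours and 2 without bins 4, 8 and 70. The 17 insulation bins became 6 with the run year, 11 with the 2 lines alone, 11 against the other deletion lines, 8 with a window of 3 or of 8 bins, 11 without bin 65 and 5 without bins 4, 8 and 70. The 4 blocks became 2 with the run year, 1 with the 2 lines alone and 2 when scaled by the median ratio. The 18 bin and zone averages became 4 with the run year and 32 against the other deletion lines. The 0 separations became 1 against the other deletion lines and 2 with separations 0 and 1 included. The 26 insulation bins against DCTCF5 became 1 with the 2 lines alone. With each library left out in turn, pairs ranged from 0 to 98, insulation bins from 3 to 17, blocks from 1 to 4, bin and zone averages from 3 to 21 and insulation bins against DCTCF5 from 8 to 45, and separations stayed at 0.

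Scaling over all separations, chosen after the data were seen, lowers the median change of all pairs by 0.27, because it counts the short-range excess of DCTCF4. Under it 330 pairs passed (1 higher and 329 lower), 23 blocks (1 higher and 22 lower) and 58 separations (all lower). Every block change moved down by the same amount, which was larger than that median shift of pairs. Of the 17 blocks with a positive change, 16 turned negative. Among the blocks given in the report these were those of the Lmbr1-side zone with the right domain (-0.32), the Shh-side zone (-0.37) and central parts A (-0.0531), B (-0.15) and C (-0.39), and those of the left with the right domain (-0.39) and within the right domain (-0.38). The change within the Lmbr1-side zone was still positive.

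Other changes of sign were bin 74 with a window of 3 bins (0.0388), bin 6 without bins 4, 8 and 70 (0.00503), the block within the Lmbr1-side zone without bin 65 (-0.17), bin 67 with its own zone as a median over pairs (-0.00118), and bin 66 against DCTCF5 without bin 65 (-0.36). The cause was not tested beyond what these alternatives leave out.

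DCTCF4 and wild type libraries share replicate numbers, but deviations of same-numbered libraries correlated at -0.05 over bin pairs, so the numbers were not taken as pairs. With the replicate block 32 pairs, 12 insulation bins, 3 blocks, 15 bin and zone averages, 0 separations and 26 bins against DCTCF5 passed. Of the checks of passing features under alternatives, 615 kept direction and call, 323 kept the direction and lost the call and 7 changed sign. Depth is unknown and limits what low pairs can show.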
